A study of Mus musculus with 2 samples.

Results

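The genes described here are 6 genes of eosinophil granule proteins, Prg2, Prg3, Epx, Ear1, Ear2 and Ear6, chosen by symbol from the 31053 genes of the deposited count matrices because their levels had already been seen to differ between the 2 sorted populations. All 6 symbols were found in both matrices. Mouse bone marrow cells with E-cadherin on their surface had been sorted into an E-cadherin+cKIT+ and an E-cadherin+cKIT- population, and 1 single-cell RNA-seq library of each was made with the 10x Genomics droplet method. The labels give the strain of both as FVB and no treatment, while the study describes wild-type mice in its text and Vav-iCre;mTmG mice in a figure legend, the control line in which Cre acts throughout the blood lineage, with cells from 3 mice combined. After the study's own cell filter, 6479 of 6632 cKIT+ cells and 3662 of 3745 cKIT- cells were kept. The kept cells held 91108781 and 22869169 UMIs (unique molecular identifiers, each standing for 1 captured RNA molecule), with a median of 13039 UMIs per cKIT+ cell and 4416.5 per cKIT- cell. Kit, the receptor used in the sort, was at 37.1 CPM (UMIs of the gene per 1000000 UMIs) in cKIT+ cells and 0.875 in cKIT- cells, which fitted the labels, and Cdh1, which encodes E-cadherin, was at 62.8 and 193 CPM. Cell barcodes shared by both libraries numbered 10, and leaving those cells out moved no value given below and recomputed without them by more than its counting interval.

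With 1 library per population there is no replicate, so differences between the libraries carry no test, and all intervals are 95% intervals of counting error only. A library's level is also a product of how many cells hold a transcript and how much each holds, and these were counted separately. The name of the gene set was checked against 8 other genes of eosinophils (Ear10, Il5ra, Siglecf, Ccr3, Alox15, Cebpe, Ltc4s, Adgre1). In the 267 cKIT+ cells with the most Epx, over 10 UMIs per 10000, 5 of these 8 were higher than in the 5568 cKIT+ cells without Epx, and their summed level was 1076 against 179 CPM. Most of that sum was Cebpe, with 963 against 121 CPM. Il5ra, which encodes the interleukin-5 receptor chain, was at 26.7 against 0.283 CPM and Siglecf at 48.6 against 15.5 CPM, whereas Ccr3, the eotaxin receptor of mature eosinophils, was at 1.43 against 2.29 CPM. Alox15 (9.05 against 29.2 CPM) and Ltc4s (2.86 against 4.82 CPM) were also lower. Ear10 was among those higher, but it shares read sequences with Ear1 and Ear2 and is not a separate check. No cluster of cells met the rule by which clusters were named for the name eosinophil.

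Eosinophils are granulocytes that fill specific granules with a few cationic proteins while they mature in the bone marrow. Prg2 encodes major basic protein, which forms the crystalline core of the granule, and Prg3 encodes its homolog. Epx encodes eosinophil peroxidase, a heme enzyme related to the myeloperoxidase of neutrophils. Ear1, Ear2 and Ear6 are members of the mouse family of eosinophil-associated ribonucleases, secreted ribonuclease A relatives that arose by repeated gene duplication. Ear2 transcripts are known in monocytes and macrophages as well. Elane (neutrophil elastase) and Mcpt8 (basophil mast cell protease 8) are set beside these genes as transcripts of the neutrophil/monocyte and basophil branches.

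In the mouse genome (GRCm38) Prg2 lies on chromosome 2 at 84980461 to 84983632 and Prg3 at 84988215 to 84993886, both on the plus strand, with 4583 bases between them. Epx lies on chromosome 11 at 87864000 to 87875536 on the minus strand, 59587 bases from Mpo. The ribonuclease genes lie on chromosome 14, Ear1 at 43818765 to 43875517 on the minus strand, Ear2 at 44102654 to 44103534 and Ear6 at 51853699 to 51854643, both on the plus strand. Of the 56-base reads that the last 500 bases of their transcripts could give, 100% were unique to the gene for Prg2, Prg3 and Epx, 99.4% for Ear6, 66.7% for Ear2 and 48.4% for Ear1. Ear1 and Ear2 share read sequences with each other, with Ear10 and with Ear pseudogenes, so the split of counts between these genes is uncertain.

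The 250 bases before the start site are shown for the 5 genes whose RefSeq promoter was at hand (GRCm38.p6), so that genes found in the same cells and genes found in different cells can be compared. Capitals mark a GATA motif (GATAA, which reads TTATC when it lies on the other strand), a TATA-type motif (TATAA), the box CCAAT, a C/EBP-type motif (TTGCNNAA) and the letters TATATCTA. The windows were Prg3 at chr2:84987965-84988214 on the plus strand, Epx at chr11:87875537-87875786 on the minus strand, Ear1 at chr14:43819640-43819889 on the minus strand, Ear2 at chr14:44102404-44102653 on the plus strand and Ear6 at chr14:51853518-51853767 on the plus strand.
Prg3: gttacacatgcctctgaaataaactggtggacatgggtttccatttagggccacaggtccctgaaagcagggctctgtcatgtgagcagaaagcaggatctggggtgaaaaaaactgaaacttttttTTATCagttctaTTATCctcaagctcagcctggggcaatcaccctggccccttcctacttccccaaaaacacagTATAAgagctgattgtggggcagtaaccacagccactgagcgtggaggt
Epx: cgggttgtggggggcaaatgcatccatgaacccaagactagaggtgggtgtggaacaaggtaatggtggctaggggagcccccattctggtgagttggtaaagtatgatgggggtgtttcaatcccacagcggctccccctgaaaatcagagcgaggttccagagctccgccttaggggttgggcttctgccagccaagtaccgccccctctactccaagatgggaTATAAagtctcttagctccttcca
Ear1: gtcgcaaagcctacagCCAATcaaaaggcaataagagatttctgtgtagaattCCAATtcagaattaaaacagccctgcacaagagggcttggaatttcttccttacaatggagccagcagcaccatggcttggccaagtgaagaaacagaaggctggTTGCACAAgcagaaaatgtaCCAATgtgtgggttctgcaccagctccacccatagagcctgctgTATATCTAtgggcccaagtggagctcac
Ear2: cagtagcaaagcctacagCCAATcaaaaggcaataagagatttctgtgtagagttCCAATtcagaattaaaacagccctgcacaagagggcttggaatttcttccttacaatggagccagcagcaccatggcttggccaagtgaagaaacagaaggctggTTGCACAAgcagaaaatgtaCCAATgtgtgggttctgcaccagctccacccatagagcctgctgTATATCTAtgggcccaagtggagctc
Ear6: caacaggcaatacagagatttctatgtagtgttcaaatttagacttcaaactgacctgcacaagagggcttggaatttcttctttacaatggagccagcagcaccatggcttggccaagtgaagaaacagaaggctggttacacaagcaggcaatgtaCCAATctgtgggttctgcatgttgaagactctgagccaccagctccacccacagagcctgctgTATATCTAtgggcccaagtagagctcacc
The Ear1 and Ear2 promoters were 99.2% identical over the bases that aligned, and Ear6 was 92.6% identical to Ear1 and 93.0% to Ear2. All 3 held TATATCTA, 28, 26 and 29 bases before the start of Ear1, Ear2 and Ear6, letters that were in 0.438% of the 32851 promoters in the table. TTGCNNAA began 92 and 90 bases before the start of Ear1 and Ear2 and was in 9.56% of all promoters, while Ear6 had no match. GATAA was matched on the reverse strand 123 and 111 bases before the start of Prg3 and in 22.6% of all promoters. TATAA began 49 bases before the start of Prg3 and 24 before that of Epx and was in 22.8% of all promoters, and CCAAT, in 33.8%, was in the 3 Ear promoters only. GAGGAA, an ETS-type motif that was in 23.3% of all promoters, was in none of the 5. These are matches of letters on both strands and say nothing of binding.

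Prg2, Prg3 and Epx were the granule genes with the large differences between the sorts, and the ribonucleases were not. Of Prg2, 41760 UMIs were counted among cKIT+ cells and 5 among cKIT- cells, or 458 CPM (454 to 463) against 0.219 CPM (0.0710 to 0.510). The ratio was 2096, with a counting interval of 898 to 6457. Prg3 had 5332 UMIs against 3, or 58.5 CPM (57.0 to 60.1) against 0.131 CPM (0.0271 to 0.383), with a ratio of 446 (153 to 2164). Major basic protein and its homolog were thus nearly confined to the cKIT+ library among these 2 libraries, whereas the peroxidase was in both. Epx had 8235 UMIs against 397, or 90.4 CPM (88.4 to 92.4) against 17.4 CPM (15.7 to 19.2), a 5.21-fold difference (4.71 to 5.77).

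The 3 ribonucleases did not share a direction. Ear6 was 2.17-fold higher in the cKIT+ library (1.79 to 2.65), with 1003 UMIs and 11.01 CPM (10.3 to 11.7) against 116 UMIs and 5.07 CPM (4.19 to 6.08). Ear2, the most abundant of the 3, had 3843 UMIs and 42.2 CPM (40.9 to 43.5) against 1230 UMIs and 53.8 CPM (50.8 to 56.9). Ear1 had 876 UMIs and 9.61 CPM (8.99 to 10.3) against 401 UMIs and 17.5 CPM (15.9 to 19.3). By CPM of the summed counts Ear1 was 1.82-fold (1.62 to 2.05) and Ear2 1.28-fold (1.19 to 1.36) higher in the cKIT- library. When the CPM of each cell was averaged, Ear1 was nearly level, at 1.01-fold in the cKIT+ library, and Ear2 was 1.38-fold higher there. As UMIs per cell both were higher in the cKIT+ library, by 1.23- and 1.77-fold. That measure is not adjusted for depth, and the cKIT+ cells were deeper, with a median of 13039 against 4416.5 UMIs.

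The difference in Prg2 and Prg3 chose these genes, so their place among all genes is given as a description. A level of 50 CPM in either library was reached by 3224 genes, of which 37 (1.15%) exceeded the other library by 4-fold or more in cKIT+ cells and 73 (2.26%) in cKIT- cells. Of the 6 granule genes 4 reached 50 CPM, and 3 of those were past 4-fold, Prg2 with the highest ratio of all 3224 genes, Prg3 with the second and Epx with the 21st. Ear2, just over the level limit, was not past 4-fold in either direction, and Ear1 and Ear6 were under the limit.

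**Figure D1:**
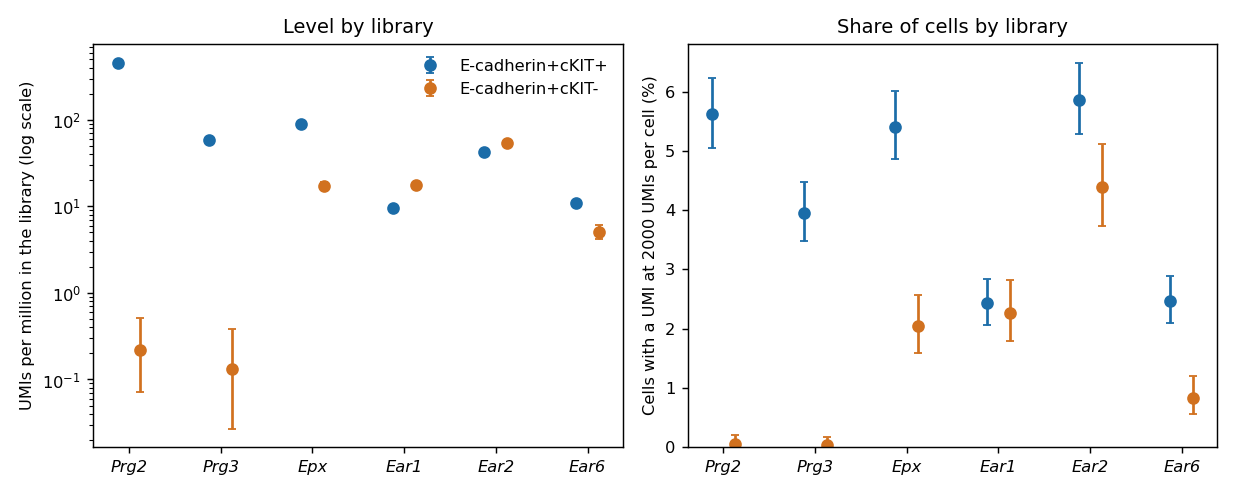
Level of each gene in CPM on a log axis (left) and percent of cells with at least 1 UMI of it at 2000 UMIs per cell (right) in the E-cadherin+cKIT+ and E-cadherin+cKIT- libraries, 1 library each, with 95% counting intervals as bars. Prg2 and Prg3 differed by 2096- and 446-fold and Epx by 5.21-fold, while Ear1 and Ear2 each differed between the libraries by at most 1.82-fold. When the CPM of each cell is averaged, Ear1 is nearly level (1.01-fold) and Ear2 is 1.38-fold higher in the cKIT+ library.

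The cKIT+ UMIs of these genes sat in few cells. At least 1 UMI was found in 822 cells for Prg2 (12.7%), 434 for Prg3 (6.70%), 911 for Epx (14.1%), 408 for Ear1 (6.30%), 755 for Ear2 (11.7%) and 355 for Ear6 (5.48%). The 65 cells with the most UMIs, 1% of the library, held 67.9% of the Prg2 UMIs, 62.3% of Prg3, 50.5% of Epx, 51.9% of Ear6, 39.95% of Ear1 and 34.6% of Ear2. A single cell held up to 1657 UMIs of Prg2, 161 of Prg3 and 149 of Epx, but no more than 55 of Ear2, 25 of Ear6 and 14 of Ear1. Of the 822 cells with Prg2, 410 had exactly 1 UMI and 291 had 10 or more, so a cell with a Prg2 UMI was either at the lowest countable level or far above it in most cases.

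In the cKIT- library Epx was spread thinly and Ear2 was not. Epx was found in 306 cells (8.36%), with at most 4 UMIs in any of them, and Ear2 in 253 cells (6.91%), with up to 30. Ear1 was found in 165 cells (4.51%) and Ear6 in 73 (1.99%). Prg2 was found in 4 cells and Prg3 in 3 others, with at most 2 UMIs, and 6 of these 7 cells were in basophil-like clusters and 1 in a B cell-like cluster. The cKIT- cells were shallower, and at a common depth of 2000 UMIs per cell, which left out 345 cKIT+ and 176 cKIT- cells, Prg2 was found in 5.62% against 0.0574% of cells and Prg3 in 3.96% against 0.0287%. At that depth the shares were 5.41% against 2.04% for Epx, 2.43% against 2.27% for Ear1, 5.87% against 4.39% for Ear2 and 2.46% against 0.832% for Ear6.

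Free RNA in droplets gives UMIs in cells that do not express a gene, and cells of other lineages show how much. Erythroid-like cKIT+ cells (77 cells, median 4963 UMIs) had Prg2 in 8 cells (10.4%), never more than 1 UMI in a cell, at 8.70 CPM (3.76 to 17.1). B cell-like cKIT+ cells (68 cells, median 3223.5 UMIs) had it in 3 cells (4.41%) at 9.33 CPM. If the erythroid-like UMIs fell evenly by depth, 7.18 cells would hold one. Single Prg2 UMIs in other cKIT+ cells were thus at the level of the background in cells that should lack the gene, and 410 of the 822 Prg2 cells held a single UMI. These enter the counts of cells below and cannot be told from background one by one. Of the other genes, the erythroid-like cKIT+ cells had Ear2 in 3 cells (3.90%), Prg3, Epx and Ear1 in 1 each (1.30%) and Ear6 in 0, which allows up to 4.68%. The B cell-like cKIT+ cells had none of these 5, which allows up to 5.28%. In the cKIT- library the 228 B cell-like cells (median 2684.5 UMIs) had Prg3 in 1 cell. They had no UMI of Prg2, Epx, Ear1, Ear2 or Ear6, which allows up to 1.60%. Epx was thus at 0 CPM (0 to 5.19) there, against 18.7 CPM (16.9 to 20.6) in the basophil-like cKIT- cells (median 4673 UMIs).

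Co-detection separated a major basic protein and peroxidase group from a ribonuclease group. Of the 434 cKIT+ cells with Prg3, 74.2% also had Prg2 and 73.7% had Epx. Of the 822 with Prg2, 47.4% had Epx and 39.2% had Prg3, against 9.21% and 1.98% of the cells without Prg2. Among the ribonucleases, 89.2% of the 408 cells with Ear1 also had Ear2, but only 34.6% had Prg2. Ear6 belonged with both, since 64.2% of the 355 cells with Ear6 had Prg2, 65.4% had Epx and 75.5% had Ear2.

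The levels per cell gave the same grouping. Over the 6479 cKIT+ cells, the correlation of log(1 + UMIs per 10000) was 0.82 between Prg2 and Epx, 0.77 between Prg2 and Prg3 and 0.73 between Prg3 and Epx. It was 0.74 between Ear1 and Ear2, which share read sequences, and 0.26 between Prg2 and Ear1. Ear6 had 0.64 with Prg2 and 0.65 with Epx, against 0.49 with Ear2 and 0.35 with Ear1. The cells come from 1 library and share its depth and free RNA, so these values are descriptions.

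In the cKIT- library the ribonucleases were found mostly with each other. Ear2 was in 97.3% of the 73 cells with Ear6 and in 87.9% of the 165 cells with Ear1. None of the 4 cells with Prg2 had another of the 6 genes, and of the 306 cells with Epx 11.4% had Ear2, against 6.50% of the cells without Epx and 29.3% of the cKIT+ cells with Epx. Of the 253 cKIT- cells with Ear2, 13.8% had Epx, against 7.95% of those without Ear2.

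**Figure D2:**
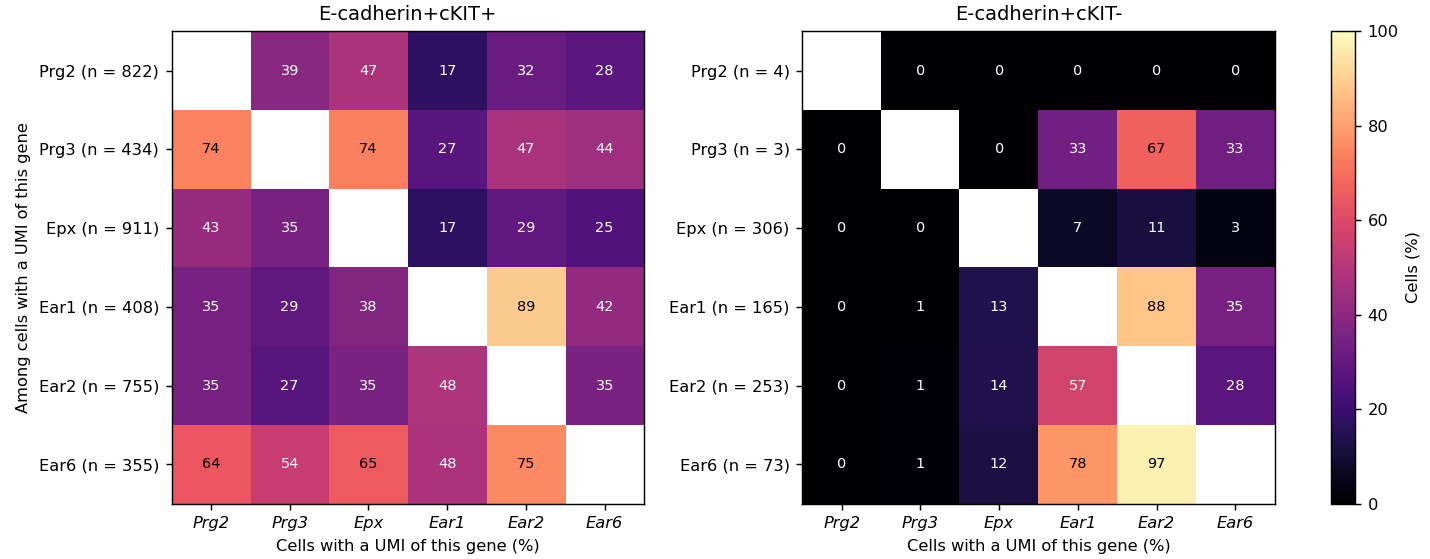
Percent of the cells with a UMI of the row gene (n cells) that also had a UMI of the column gene, in the E-cadherin+cKIT+ library (left) and the E-cadherin+cKIT- library (right). Prg2, Prg3 and Epx overlap in the cKIT+ library, Ear1, Ear2 and Ear6 overlap in both, and no cKIT- cell had both Prg2 and Epx.

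Of the cKIT+ cells, 4589 had none of the 6 genes, 1090 had 1, 326 had 2, 198 had 3, 108 had 4, 91 had 5 and 77 had all 6. Of the cKIT- cells 3114 had none, 373 had 1, 100 had 2, 69 had 3, 6 had 4 and none had more. Cells with 3 or more made up 7.32% of the cKIT+ cells (474 cells, 6.69 to 7.98%) and 2.05% of the cKIT- cells (75 cells, 1.61 to 2.56%). These were not the same combination of genes. Of the 474 cKIT+ cells, 390 (82.3%) had Prg2 or Prg3, whereas 2 of the 75 cKIT- cells (2.67%) did and 57 (76.0%) had all of Ear1, Ear2 and Ear6 with neither Prg2 nor Prg3.

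Within the cKIT+ library, cells with 3 or more of the genes and Prg2 or Prg3 among them had 4401 CPM of Mcpt8, and the 84 such cells with neither had 16797 CPM. Epx alone was the commonest single detection in both libraries, in 428 cKIT+ and 268 cKIT- cells, followed in the cKIT+ library by Prg2 alone in 351 cells, a count that includes single UMIs at the background level. Ear1 with Ear2 and nothing else was found in 139 cKIT+ and 73 cKIT- cells.

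**Figure D3:**
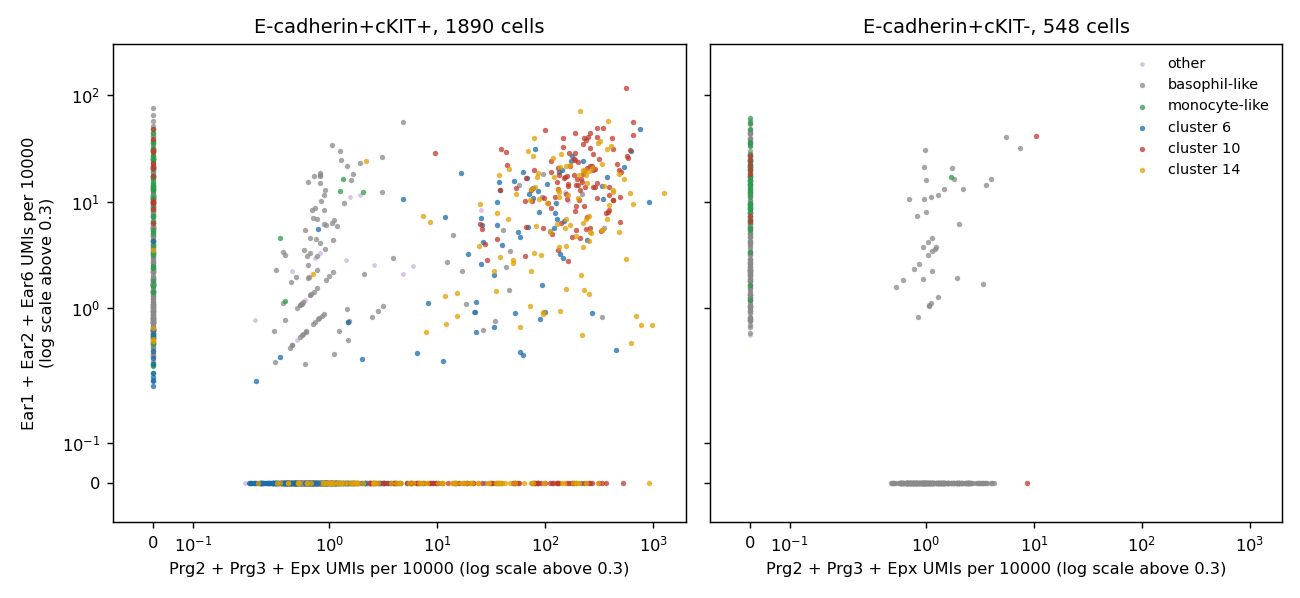
Summed Prg2, Prg3 and Epx UMIs (horizontal) and summed Ear1, Ear2 and Ear6 UMIs (vertical) per 10000 UMIs in each cell with any of the 6 genes, on log scales above 0.3, coloured by cluster or class, for 1890 cKIT+ and 548 cKIT- cells. Cells of clusters 6, 10 and 14 reach far to the right in the cKIT+ library, monocyte-like cells lie on the left edge, and in the cKIT- library most cells lie on one axis or the other.

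Elane was found often beside the granule genes but at a low level. In the cKIT+ library 153 of the 474 cells with 3 or more granule genes had at least 3 Elane UMIs (32.3%, 28.1 to 36.7%), against 15.7% (14.8 to 16.6%) of the 6005 other cells, although their Elane level was 984 CPM (957 to 1011) against 2267 CPM (2257 to 2277). Background was lower, with 2.60% of erythroid-like and 1.47% of B cell-like cells at 3 or more Elane UMIs. With 5 or more granule genes the share was 36.3% of 168 cells and the level 814 CPM. At 2000 UMIs per cell both groups were chosen anew from the thinned counts, as 227 cells with 3 or more granule genes and 5907 others. These 227 are only a part of the 474. Their 3-UMI shares were 10.1% (6.53 to 14.8%) and 11.1% (10.3 to 11.9%), whose intervals overlap. At least 1 Elane UMI was in 39.2% (32.8 to 45.9%) against 18.4% (17.5 to 19.4%), with 4.55% of erythroid-like cells (0.947 to 12.7%) as background. Elane transcripts thus made up less of the RNA of the granule-gene cells than of the rest of the library. In the groups chosen at 2000 UMIs, whether more of the granule-gene cells held Elane depended on the UMIs asked for. Among the cKIT- cells 5 of 75 (6.67%) had 3 or more Elane UMIs, against 6 of 3587 others (0.167%).

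Mcpt8 was at a lower level in the granule-gene cells and, at 3 or more UMIs, in fewer of them. Of the 474 cKIT+ cells, 297 had at least 3 Mcpt8 UMIs (62.7%, 58.1 to 67.0%), against 71.5% (70.4 to 72.7%) of the others, at 6963 against 11337 CPM. In the 227 cells chosen anew at 2000 UMIs per cell and the 5907 others the shares were 26.9% (21.2 to 33.1%) and 59.997% (58.7 to 61.2%). The levels there were 2617 and 11399 CPM, so these 227 were lower in Mcpt8 than the 474. At least 1 Mcpt8 UMI, at full depth, was in 89.2% (86.1 to 91.9%) and 88.7% (87.8 to 89.5%), whose intervals overlap. The level was lower with more granule genes, 4162 CPM in cells with 4 or more and 2203 CPM in cells with 5 or more. Mcpt8 is among the most abundant transcripts here and its background is high, 26.0% at 3 or more UMIs and 1308 CPM in erythroid-like cells and 5.88% and 779 CPM in B cell-like cells, against which the 2203 CPM of the cells with 5 or more granule genes is to be read.

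Among cKIT- cells 305 of the 306 with Epx (99.7%) had at least 3 Mcpt8 UMIs, at 36005 CPM against 26187 CPM for the library, and the 4 with Prg2 all had them too, at 35923 CPM (34101 to 37818). The 75 cKIT- cells with 3 or more granule genes had Mcpt8 in 66.7% (54.8 to 77.1%) at 21775 CPM, against 81.3% (80.0 to 82.6%) of the other cells at 26312 CPM.

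The cells were clustered with the 6 genes left out of the clustering, which gave 25 clusters over both libraries. A Prg2 level of 500 CPM or more was found in 3 of them. Cluster 14 (327 cKIT+ cells, median 13797 UMIs) had 4966 CPM of Prg2, 554 of Prg3 and 717 of Epx, with 136 of Ear2 and 73.5 of Ear6. Its leading genes beyond the 6 were Cebpe, a transcription factor of granule gene expression, Ldhc, B4galt6, Alas1, Elane and Fkbp11, and its Elane level was 5079 CPM. Cluster 10 (405 cKIT+ and 21 cKIT- cells, median 1785.5 UMIs) had 5241 CPM of Prg2, 1080 of Epx, 346 of Prg3, 286 of Ear2 and 229 of Ear6, with 339 CPM of Elane and 4747 of Mcpt8. Its leading genes beyond the 6 were Gm42418, Ankrd28, Gm26917 and mt-Nd3. In cluster 10, 7 of the 10 basophil genes, 4 of the 6 granulocyte/monocyte progenitor genes and 3 of the 8 other eosinophil genes were on. Both clusters stayed unnamed. Cluster 10, which otherwise met the rule for basophil-like, did so for its low depth, and cluster 14 for a tie among its leading genes. These held an eosinophil marker, Cebpe, and a granulocyte/monocyte progenitor marker, Elane. In cluster 14, 2 of the 8 other eosinophil genes and 6 of the 6 granulocyte/monocyte progenitor genes were on. Cluster 6 (523 cKIT+ cells, median 25730 UMIs) was granulocyte/monocyte progenitor-like, led by Elane at 12249 CPM, and had 778 CPM of Prg2, 126 of Prg3 and 210 of Epx.

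These 3 clusters held 93.0% of the cKIT+ Prg2 UMIs, 86.9% of Prg3, 87.8% of Epx and 78.9% of Ear6, but 35.0% of Ear2 and 30.4% of Ear1. Basophil-like clusters, 13 in all, held 6.36% of Prg2, 11.6% of Prg3, 11.01% of Epx and 12.3% of Ear6, against 47.2% of Ear2 and 57.2% of Ear1. Between these clusters, of which the first 3 were chosen by their Prg2 level, Ear6 was thus distributed more like Prg2 than like Ear2. In cluster 20, however, Ear6 was at 66.1 CPM and Prg2 at 3.67 CPM. Monocyte-like cluster 20 held the highest Ear1 and Ear2 levels of the 25 clusters and almost none of Prg2, Prg3 and Epx. Its 94 cKIT+ cells had 408 CPM of Ear2 (372 to 447), 56.7 of Ear1 and 43.0 of Ear6, and its 65 cKIT- cells had 845 (764 to 932), 194 and 123 CPM. Epx was not found in the 94 cKIT+ cells and had 1 UMI in the cKIT- cells, and Prg2 had 6 and 0 UMIs.

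**Figure D4:**
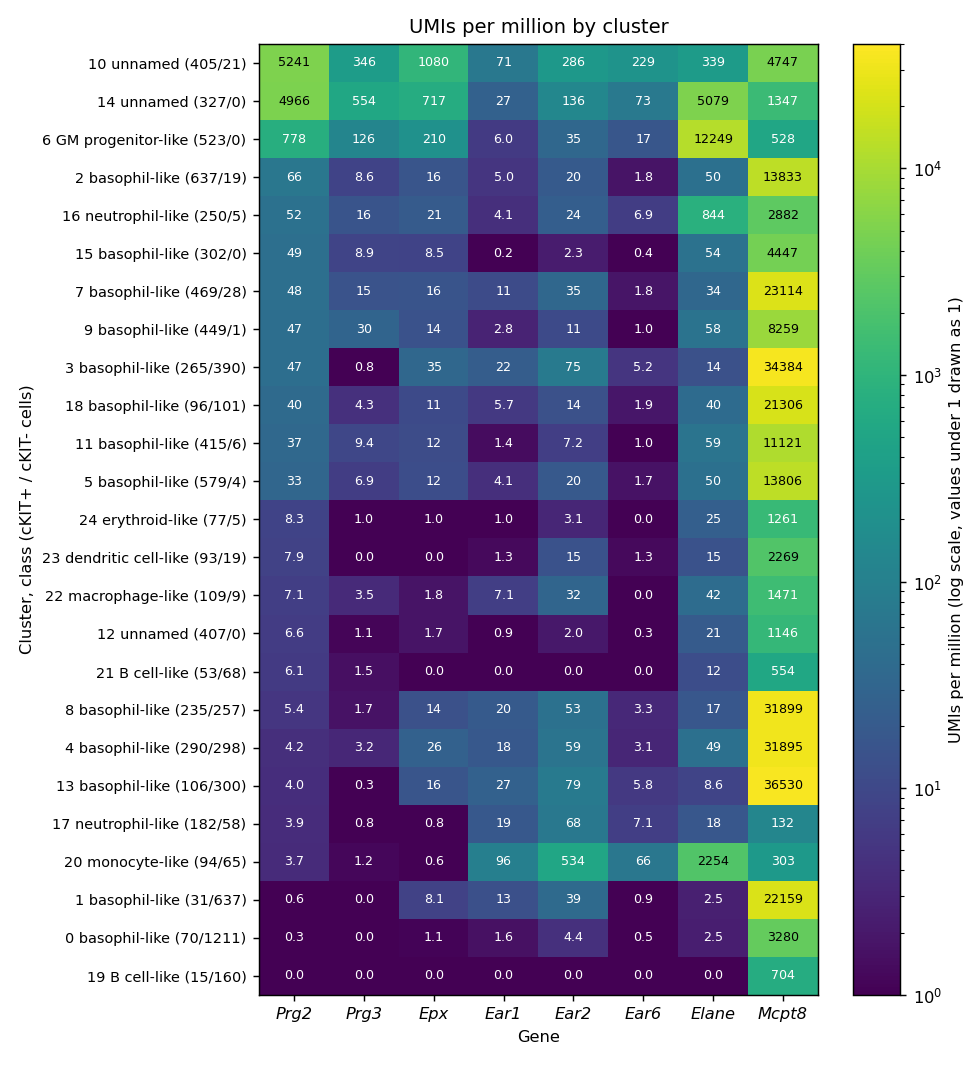
Level of each of the 6 genes, Elane and Mcpt8 (CPM, log colour scale) in the 25 clusters, with the class and the number of cKIT+ and cKIT- cells at each row, in the order of their Prg2 level. Clusters 6, 10 and 14 carry Prg2, Prg3 and Epx, and cluster 20 (monocyte-like) carries Ear2 at 534 CPM with Prg2 at 3.67 CPM.

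The proportions within the set differed by place. Ear6 had 0.49 UMIs for each UMI of Ear2 in cluster 6, 0.91 in the cKIT+ cells of cluster 10 and 0.54 in cluster 14. In monocyte-like cells it had 0.11 (cKIT+) and 0.15 (cKIT-), and neither of these intervals met those of the cKIT+ cells of clusters 6, 10 and 14. The cKIT- cells of cluster 10, with 1 UMI of Ear6 and 33 of Ear2, were at 0.030 (0.00074 to 0.18), which overlaps both. Prg3 had 0.16 UMIs for each of Prg2 in cluster 6 (0.15 to 0.17), 0.11 in cluster 14 and 0.066 in cluster 10 (0.059 to 0.074).

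No cluster was uniform for these genes. In clusters 6, 10 and 14 together Prg2 was in 440 of 1255 cKIT+ cells, whereas its 38823 UMIs would have reached 1223 cells if spread by depth. In the basophil-like cKIT+ cells 2655 Prg2 UMIs were in 309 of 3944 cells, against 1860 if even, and 31 cells with 5 or more UMIs held 88.4% of them. In the basophil-like cKIT- cells Ear2 was in 185 cells, against 662 if even, while Epx was in 303 cells, against 362 if even, and so came nearer to an even spread.

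The 291 cKIT+ cells with 10 or more Prg2 UMIs had a median of 129 Prg2 UMIs per 10000, and the highest cell had 1038. They were found in cluster 14 (108 cells), cluster 10 (100), cluster 6 (54), basophil-like clusters (25) and neutrophil-like clusters (4). Epx was in 274 of them, Cebpe in 264, Prg3 in 245, Ear6 in 186, Ear2 in 183 and Ear1 in 102. High Mcpt8, 100 or more UMIs per 10000, was in 15 of these cells and high Elane, 20 or more, in 23, with none at both. Of the 15 cells with high Mcpt8, 13 were among the 25 in basophil-like clusters, and 7 of those 25 were among the cells with the highest doublet scores, against 12 of all 291.

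In cells of clusters 6 and 14, more Prg2 went with less Elane. In cluster 6 Elane was at 1482 CPM (1406 to 1561) in the 54 cells with 10 or more Prg2 UMIs, 11350 in the 61 cells with 1 to 9 and 13346 in the 408 cells with none. In cluster 14 it was at 871 CPM (821 to 924) in 108 cells, 4706 in 44 and 7061 in 175. In cluster 10 Elane was at 226 CPM (168 to 298) in 100 cells, 196 (130 to 284) in 73 and 452 (397 to 513) in 232. There it was lower in the cells with Prg2 than in those with none, but not lower with more Prg2. Prtn3, another neutrophil granule protease, was at 1103, 7112 and 7871 CPM in cluster 6 and at 660, 2527 and 3822 in cluster 14. Mpo, the neutrophil peroxidase, differed less, with 5847, 9952 and 9096 CPM in cluster 6.

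Cebpe and Ldhc ran the other way. Cebpe was at 983, 448 and 387 CPM over the same cells of cluster 6, at 1008, 634 and 555 in cluster 14 and at 841, 343 and 28.0 in cluster 10. Ldhc, which encodes the lactate dehydrogenase best known from testis, was at 208, 28.5 and 9.14 CPM in cluster 6 and at 202, 53.4 and 7.48 in cluster 14. Kit did not separate these cells in cluster 6, at 69.5 (53.9 to 88.3), 53.4 (42.9 to 65.6) and 53.9 CPM (49.6 to 58.5), with overlapping intervals. Cluster 10 had Kit at 140 (95.2 to 199), 56.1 (24.2 to 110) and 52.3 CPM (34.7 to 75.6), highest in the cells with the most Prg2. In cluster 10 Mcpt8 was at 1464, 3763 and 4909 CPM, and Gata2, a transcription factor high in basophils, at 294, 701 and 960 CPM.

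The cKIT+ cells were also ordered by Epx, as 5568 cells with none, 386 with less than 1 UMI per 10000, 258 with 1 to 10, 130 with 10 to 30 and 137 with more than 30. Prg2 was at 31.7, 83.6, 1688, 10682 and 23154 CPM over these 5 groups and Prg3 at 6.76, 24.5, 393, 1395 and 1738 CPM. Both were thus higher at each step. There were 4.68, 3.41, 4.3004, 7.66 and 13.3 Prg2 UMIs per Prg3 UMI over the 5 groups, lower at the first step and higher at each later one. Ear6 was at 2.34, 2.22, 32.1, 189 and 547 CPM, and Ear2, which was already present without Epx, at 28.8, 27.5, 114, 435 and 521 CPM. Ear1 was at 7.01, 7.17, 22.3, 84.8 and 107 CPM. The median depth was 12814.5, 18236.5, 13208.5, 8905 and 3470 UMIs, so the last group was the shallowest, and its part in these levels was not tested.

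Elane was lower at each step, at 2351, 1424, 1215, 1051 and 417 CPM. A UMI of Elane was in 38.1, 46.4, 56.6, 60.8 and 48.2% of the cells, so its share of cells was not lower at each step. Mcpt8 was highest in cells with a trace of Epx, at 10417, 19302, 13718, 1514 and 953 CPM, and Gata2 was at 502, 570, 442, 114 and 102 CPM. Il5ra was at 0.283, 0.782, 4.18, 21.8 and 34.4 CPM. Kit was at 37.6, 20.3, 37.4, 73.2 and 94.5 CPM and Cdh1 at 61.8, 79.0, 70.0, 27.2 and 23.3 CPM, so the cells with the most peroxidase had more transcript of one sort marker and less of the other.

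**Figure D5:**
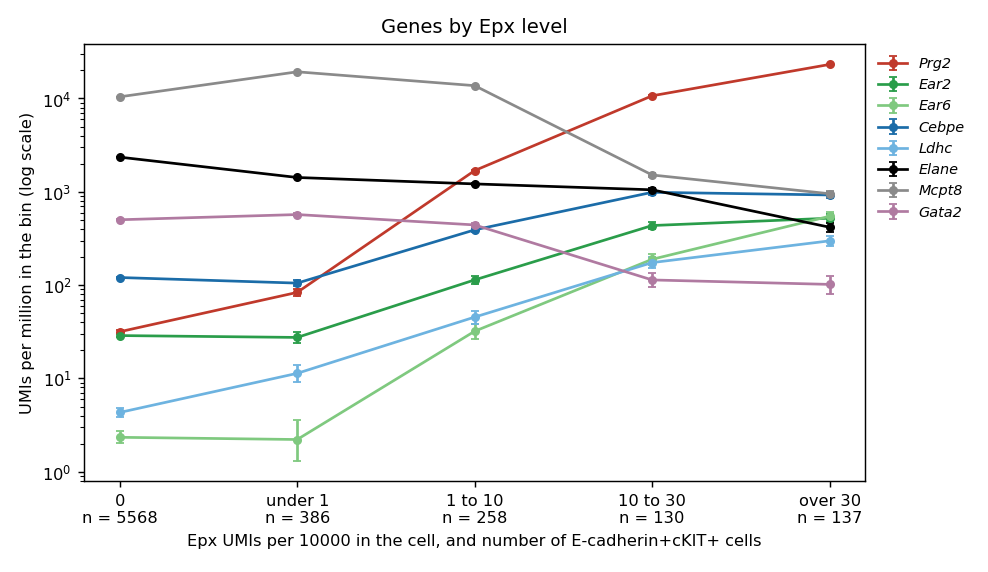
Levels in CPM (log axis) of Prg2, Ear2 and Ear6 and of Cebpe, Ldhc, Elane, Mcpt8 and Gata2 in cKIT+ cells grouped by Epx UMIs per 10000 (5568, 386, 258, 130 and 137 cells), with 95% counting intervals as bars. Prg2 goes from 31.7 to 23154 CPM and Ear6 from 2.34 to 547 CPM, while Elane goes from 2351 to 417 CPM.

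Related genes were counted by lists chosen for their roles, comparing the 267 cKIT+ cells with over 10 Epx UMIs per 10000 with the 5568 without Epx. Clusters 6, 10 and 14 held 258 of the 267 and 825 of the 5568. Only 457 of the 3944 basophil-like cKIT+ cells had an Epx UMI, so most of these were among the 5568. The ratios thus also compare cell classes, whose part in them was not tested. Of 3099 genes at 50 CPM or more in either group, 115 (3.71%) were at least 2-fold higher and 152 (4.90%) at least 2-fold lower, with a median log2 ratio of -0.01. Of the 14 eosinophil receptors and lipid enzymes 5 reached that level, 0 were past 2-fold higher and 4 lower, namely Csf2rb (78.6 against 187 CPM), the common chain of the interleukin-5 receptor, its relative Csf2rb2 (23.3 against 87.7), the lipoxygenase Alox5 (40.5 against 141) and the tetraspanin Cd9 (70.0 against 204). The median log2 ratio of those 5 was -1.54. Csf2rb2 and Alox5 reached the level limit only in the cells without Epx. Il5ra, the specific chain, was below the level limit. Of the genes below it, Il5ra, Siglecf and Adgre1 were higher in the cells high in Epx. Csf2ra, Ccr3, Il1rl1, Alox15, Ltc4s and Itgam were lower.

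Of 13 transcription factors of granulocyte lineages 8 were tested, and Cebpe was the 1 past 2-fold higher, at 7.98-fold. Gata2, Cebpa, Cebpb, Id1 and Id2 were past 2-fold lower, with Gata2 at 109 against 502 CPM and Cebpa at 45.2 against 223 CPM, and the median log2 ratio of the 8 was -1.85. Cebpa, Id1 and Id2 reached the level limit only in the cells without Epx. Trib1, a regulator of C/EBP proteins that is below the limit, was at 44.8 against 5.92 CPM. Spi1 (PU.1) was level at 199.98 against 202 CPM, and Gata1 was at 48.1 against 30.2 CPM.

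Genes of granule packing differed little. Of 8 genes of granule packing and membrane 5 were tested and 0 were past 2-fold in either direction, with Cd63 at 2408 against 1894 CPM and Srgn, the proteoglycan that holds granule proteins, at 1739 against 2658 CPM. Of the neutrophil primary granule genes 5 were tested and 3 were lower, Elane, Prtn3 and Ctsg, while Mpo had a ratio of 1.39 and Ms4a3 of 1.07. Of 8 secondary granule genes 7 were tested and 6 were lower, such as Ngp at 405 against 2669 CPM and Lcn2 at 107 against 861 CPM. Among these, Fcnb reached the level limit only in the cells without Epx. Of 9 enzymes of heme synthesis 3 were tested and Alas1, the rate-limiting enzyme outside red cells, was 2.02-fold higher at 318 against 157 CPM, while the red cell form Alas2 had 0 UMIs in the cells high in Epx. Of 8 cell cycle genes 7 were tested and Tyms was past 2-fold lower, at 80.0 against 173 CPM.

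Other members of the ribonuclease family were mostly low. Of 17 other Ear, Rnase and Ang genes 1 reached the level limit, Rnase6, which was lower at 28.1 against 74.1 CPM. It reached the limit only in the cells without Epx. Ear10, whose promoter and transcript resemble Ear1 and Ear2, was at 13.3 against 1.56 CPM, and Ear14 and Rnase2a were below 3 CPM in both groups.

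Marker genes of other cell types were counted in the same 2 groups. Summed levels were 3631 against 24444 CPM for 10 basophil genes, 6361 against 28012 for 8 neutrophil genes, 48.1 against 320 for 6 monocyte genes and 110 against 1923 for 7 erythroid genes. The granulocyte/monocyte progenitor list was at 9588 against 12664 CPM, and lists of mast cells (17.1 against 122), macrophages (35.7 against 110), dendritic cells (93.8 against 661), B cells (31.9 against 204) and T or NK cells (705 against 916) were also lower in the cells high in Epx. The sum of 5 stem cell genes was higher, at 183 against 119 CPM, with 3 of the 5 genes higher. That of 4 megakaryocyte genes was also higher, at 185 against 153 CPM, but only 1 of the 4 genes was. Defining markers at 0 UMIs in the cells high in Epx included Csf1r of monocytes, Cd5l of macrophages, Siglech of dendritic cells and Cd79a, Ebf1 and Igll1 of B cells. What part the other markers have in the levels of the granule genes was not tested.

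Over the 6479 cKIT+ cells, the genes whose pattern was most like the mean of the 6 were sought among 8873 others with at least 500 UMIs, by the correlation of log(1 + UMIs per 10000). Ldhc was first (0.53) and Cebpe second (0.45), followed by the lysosomal sulfatase Arsb (0.42), Gm42418 (0.37), Myb, a transcription factor of blood progenitors (0.35), Ankrd28 (0.34), Sun2 of the nuclear envelope (0.33), the glycolipid enzyme B4galt6 (0.33), the ribosomal protein gene Rpl37a (0.26) and Dstn, an actin-severing protein (0.25). Ldhc was found in 49.8% of the 267 cells high in Epx and 4.54% of those without. Against the 3 ribonucleases alone the order differed, with Gm42418 first (0.38) and Fn1, which led the monocyte-like cluster, also among the first 10 (0.26). Gm42418 and Ankrd28 were also leading genes of low-depth cluster 10, and the part of depth in these correlations was not tested.

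Ribonuclease transcripts without Prg2 or Prg3 were found in cells of several classes, with the highest share in monocyte-like cells. Cells with 3 or more UMIs of Ear1, Ear2 and Ear6 and no Prg2 or Prg3 numbered 249 in the cKIT+ and 156 in the cKIT- library. Basophil-like cells were the largest class among them, 166 and 106 cells, or 4.21% and 3.26% of the basophil-like cells. They were also the largest class of each library, with 3944 of 6479 cKIT+ and 3252 of 3662 cKIT- kept cells. They made up 66.7% and 67.9% of the cells with ribonuclease transcripts. That was near their part of the kept cells in the cKIT+ library and below it in the cKIT- library. Monocyte-like cells were 41 and 40 of them, but these were 43.6% and 61.5% of the monocyte-like cells.

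The basophil-like cKIT+ cells with ribonuclease transcripts were not low in basophil genes. They had 24187 CPM of Mcpt8 and 28906 of Prss34, another basophil protease, against 15745 and 15493 CPM in the 3561 basophil-like cells with no Ear UMI. Cdh1 was at 178 against 82.4 CPM, Kit at 11.4 against 25.5 CPM and Mki67, a proliferation gene, at 484 against 257 CPM. Ear10 had 84 UMIs (39.9 CPM) against 2 UMIs (0.0369 CPM). It shares read sequences with Ear1 and Ear2, by which the cells were chosen, so this difference is not independent of the choice. Epx differed little in this library, at 13.8 CPM (9.23 to 19.8) against 11.2 CPM (10.4 to 12.2). The cells with no Ear UMI, unlike the others, could hold Prg2 or Prg3. Of the monocyte genes Csf1r had 0 UMIs, F13a1 was at 20.9 CPM (15.2 to 28.1) against 13.6 CPM, Ccr2 at 3.33 against 1.03 CPM and Lyz2 at 68.4 against 58.9 CPM. In the cKIT- library the basophil-like cells with ribonuclease transcripts had 32784 against 27831 CPM of Mcpt8 and 300 against 199 CPM of Cdh1, with a median depth of 6609 against 4492.5 UMIs, whose part in the choice of these cells was not tested.

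Across the basophil-like cKIT+ cells Ear2 and Epx were higher with more Mcpt8 and Prg2 was not. Ear2 was at 6.44, 38.1 and 51.8 CPM in cells with under 100, 100 to 250 and 250 or more Mcpt8 UMIs per 10000, Epx at 11.5, 14.6 and 21.4 CPM and Ear1 at 1.38, 10.5 and 14.9 CPM. Prg2 was at 67.9, 31.9 and 31.9 CPM and Prg3 at 14.2, 11.6 and 3.25 CPM. Over these 3 groups together 31 cells held 88.4% of the Prg2 UMIs and 18 cells held 84.5% of Prg3. The Prg2 and Prg3 levels thus rest on few cells, and whether they differ across the other basophil-like cells was not tested. Of the 25 basophil-like cKIT+ cells with 10 or more Prg2 UMIs, 7 were among the cells with the highest doublet scores. In the cKIT- library, where the least Mcpt8-rich cells were also the shallowest, Epx was at 1.41, 15.6 and 24.7 CPM. There Ear2 was at 4.94, 57.4 (49.4 to 66.5) and 42.1 CPM (38.8 to 45.7) and Ear1 at 2.35, 25.5 and 14.8 CPM, both highest in the middle group.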

How the data were processed

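Bone marrow cells of mice (FVB per the labels) were sorted as E-cadherin+cKIT+ and E-cadherin+cKIT- and captured on the 10x Genomics system, 1 library each. The labels name kit version 2 and the study's methods version 3. The authors deposited, for each library, a matrix of whole, unnormalized UMI counts with genes in rows and cells in columns. Cell Ranger 3.0.2 and mm10 are named by the submitters' processing notes. Group labels came from the sample titles, 0 columns were left unused, and analysis began from these counts.

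The study's stated filter was applied: genes in at least 40 cells were counted, and cells in the top or bottom 1% of genes or the top 1% of UMIs were removed, which left 10141 cells, the total the study gives, although the number it gives for the cKIT+ library alone is smaller and does not add up to it. Depth ranged from 505 to 43698 UMIs per kept cKIT+ cell and from 635 to 21444 per kept cKIT- cell. CPM is the UMIs of a gene over all UMIs of the cells named, times 1000000, and includes genes in fewer than 40 cells. Intervals are exact Poisson for levels, exact binomial (Clopper-Pearson) for shares and from the exact binomial for ratios, at 95%, and cover counting error only. There is 1 library per population, so no test was made and the mice cannot be told apart. Thinning drew 2000 UMIs (or 1000) from each cell without replacement.

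Cells were clustered in Seurat 5.3.0 (R 4.3.3) with 15 components and resolution 1, on 2000 variable genes without the 6 granule genes. A cluster was called after a cell type from marker lists only where at least 3 of its markers (for basophils 5) were on. The cluster's leading 10 genes and its depth also had to leave the name uncontradicted. A marker counted as on in a cluster where its level reached both 20 CPM and 10% of its own peak among the clusters. This rule was set with the data known. Doublets were kept: Scrublet in Scanpy 1.11.5 marked 256 cKIT+ cells (3.86%) and 5 cKIT- cells (0.134%), and the latter call has not worked, so an alternative removed the highest-scoring cells at a rate of 0.8% for each 1000 cells. TMM scaling used edgeR 4.0.16. The scripts were tested on simulated data.

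Genes named are the 6 granule genes, Elane, Mcpt8, Kit, Cdh1, those of the role and marker lists and the 10 other genes most correlated with the 6. The members, lists and alternatives were chosen with earlier results of these data known. The Epx groups, the limits of 10 Prg2 UMIs and 3 Ear UMIs, the Mcpt8 and Elane limits and the letters TATATCTA were chosen after values or sequences were seen, as were Ear10, Ear14, Rnase2a, Trib1, Prss34 and Fn1 as examples. Positions are from GENCODE M21 (GRCm38) and promoters from RefSeq (GRCm38.p6), where 5 of the 6 genes matched. For Ear1 and Ear6 the RefSeq start lies inside the GENCODE gene, so part of the window shown overlaps the gene. Read uniqueness was computed for 56-base windows of the last 500 bases of each transcript. Cells sharing a barcode between libraries, and low-depth cluster 10, were left out as alternatives chosen after seeing the data.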

Additional observations from a re-analysis of the deposited data

How the results depend on the processing

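For 34 values, 234 alternatives were run: 136 kept the direction and stayed within counting error (counts of genes within 1.5 times), 92 moved beyond it and 6 reversed. No paired analysis was possible because each population had 1 library and no test was made. All deposited cells, cells with the highest doublet scores left out and shared barcodes left out moved none of the values beyond counting error. TMM scaling was run only for the counts of genes past 4-fold, 40 and 68, within 1.5 times of those without it.

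The cKIT+ to cKIT- ratio of Prg2, Prg3 and Epx summed was 34.3, 30.8 without low-depth cluster 10, 89.8 as mean CPM of each cell and 77.2 as UMIs per cell. That of the 3 ribonucleases was 0.822, 0.774 without cluster 10 and 0.769 without the 10 most abundant genes of either library, but reversed to 1.58 as mean CPM of each cell and 1.85 as UMIs per cell, as did Ear1 (1.01 and 1.23) and Ear2 (1.38 and 1.77). UMIs per cell are not adjusted for depth, which was higher in the cKIT+ library.

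Cells with Prg2, Prg3 or Epx were 21.9% of the cKIT+ library, 20.3% without cluster 10, 8.30% and 7.14% at 2000 and 1000 UMIs per cell and 7.76% at 3 or more UMIs. In the cKIT- library they were 8.55%, and 2.12%, 1.29% and 0.519% under the last 3. For the ribonucleases the shares were 13.6%, 12.4%, 7.25%, 5.91% and 7.501% (cKIT+) and 7.51%, 4.99%, 3.77% and 4.31% (cKIT-). Cells with 3 or more of the genes were 7.32%, 5.71% without cluster 10, 3.70% and 3.30% thinned, 12.3% at 2 or more and 4.26% at 4 or more (cKIT+), and 2.05%, 0.545%, 0.138%, 4.78% and 0.164% (cKIT-, cluster 10 kept).

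Beside granule genes Elane was in 32.3% of cKIT+ cells, 42.4% without cluster 10, 10.1% at 2000 UMIs and 54.2% at 1 or more Elane UMIs, and in 6.67% of cKIT- cells, but 0% at 2000 UMIs (0 of 19 cells) and 0% with 4 or more of the genes (0 of 6). At 2000 UMIs the cells with 3 or more granule genes were chosen anew, 227 in the cKIT+ library. Mcpt8 was in 62.7%, 73.5%, 26.9% and 89.2% of cKIT+ cells under the same 4 settings, and in 66.7% of cKIT- cells, 92.0% at 1 or more Mcpt8 UMIs and 83.3% with 4 or more of the genes.

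Clusters with 500 CPM or more of Prg2 held 91.0% of Prg2, Prg3 and Epx UMIs, 83.5% with the 6 genes kept in the clustering, 91.6% and 83.7% at resolutions 0.5 and 2 and 90.7% with 30 components, and 32.7% of ribonuclease UMIs, 34.4% and 31.0% at the other resolutions. Genes past 4-fold numbered 37 higher in cKIT+ and 73 in cKIT-, 1038 and 465 with at least 10 UMIs over both libraries, and 10 and 20 with at least 200 CPM. The causes of these shifts were not tested, except that thinning and stricter limits leave fewer UMIs to count.

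With 3 counts taken as the most that a count of 0 allows, the limit in the cKIT- library was 0.131 CPM, or 0.0819% of cells (0.101% by the exact interval). Prg2 and Prg3, at 5 and 3 UMIs there, were thus at or near the limit. Ear1 and Ear2 counts depend on how reads of near-identical sequence were assigned.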

Other observations

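Rnase2a and Rnase6, relatives of the Ear genes, were at 38.0 and 257 CPM in the monocyte-like cells, against 1.02 and 71.0 CPM in the cKIT+ and 1.05 and 99.9 CPM in the cKIT- library. In the monocyte-like cells Ear2 was at 534 CPM and Ear1 at 96.1 CPM. In the cKIT+ cells with over 10 Epx UMIs per 10000 Rnase2a was at 2.86 CPM, so the ribonucleases of both kinds of cell were not in the same proportion. In the monocyte-like cKIT+ cells, the 41 with 3 or more Ear UMIs and no Prg2 or Prg3 had 1285 CPM of Fn1, 1184 of F13a1 and 16121 of Lyz2, against 49.3, 300 and 1387 CPM in the 33 with no Ear UMI, and Elane was at 1846 against 3165 CPM. In the monocyte-like cKIT- cells Fn1, F13a1 and Lyz2 were at 2246, 1646 and 23106 CPM in 40 cells against 387, 179 and 9237 CPM in 22 cells. Elane went the other way there, with 94 UMIs (298 CPM) in the 40 cells and 0 UMIs in the 22.

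The 21 cKIT- cells of low-depth cluster 10 had no Prg2 or Prg3 UMI and 2 Epx UMIs, against 4948 Prg2 UMIs in the 405 cKIT+ cells of that cluster, while Ear2 was at 739 CPM (509 to 1038) in the former and 263 CPM (231 to 299) in the latter. These are counts of 33 and 237 UMIs. In the neutrophil-like cKIT+ cells (432 cells) Prg2 was at 43.7 CPM, of which 88.7% was in 5 cells.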
